A study of Rattus norvegicus with 26 samples.

Results

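Hippocampal gene expression was compared between aging rats fed a diet low in vitamin D3 and rats fed a control diet. The comparison holds 17 of the 26 arrays of the series, 8 from the low diet and 9 from the control diet, chosen by the diet named in the array titles. All rats were 18-month-old males of the F344 (Fisher 344) inbred strain. The low diet held 100 IU and the control diet 1000 IU of vitamin D3 (cholecalciferol) per kg, both mixed into the same purified rodent diet, AIN-93G, which was fed for 5 to 6 months. No other treatment separated the groups. The arrays of the high vitamin D diet entered the model but not the comparison. The series began with 60 rats, and per its design text 1 low-diet RNA sample failed quality control. Each array held the RNA of 1 rat's hippocampus, so the values are averages over all of its cells. Blood levels and behaviour of the rats were not used here, so each group is known by its diet alone.

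Vitamin D3 is hydroxylated in the liver, by Cyp2r1 and Cyp27a1, to the circulating form that is measured in serum, and then by Cyp27b1 to the active hormone. The hormone binds the vitamin D receptor (Vdr), which pairs with a retinoid X receptor such as Rxra on DNA. Its textbook target is Cyp24a1, the enzyme that breaks the hormone down, and in gut and kidney it raises genes of calcium uptake. In the brain the receptor has been described mainly in neurons, and calcium entry and the calcium-dependent afterhyperpolarization of hippocampal neurons are a long-standing interest in brain aging.

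Across the hippocampus the low diet left no gene with a difference that passed the test. The gene nearest to it was Rad17, which loads the DNA damage checkpoint clamp, with a lower mean on the low diet. The next genes in the order of p were Cavin3, a coat protein of caveolae, with a lower mean, and Wdfy1, an endosomal adaptor, also with a lower mean. The leading genes with higher means on the low diet were Cyp20a1, an orphan member of the cytochrome P450 family, Pnoc, the precursor of the neuropeptide nociceptin, and Adcy8, an adenylyl cyclase stimulated by calcium and calmodulin. All of these differences were under 1.2-fold.

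Values are log2 probe set intensities, and a difference is the mean of low minus the mean of control on that scale. Limma's moderated test called 0 of 8485 tested genes (0%) at a Benjamini-Hochberg adjusted p under 0.17, the stricter false discovery rate in the series design. The smallest adjusted p was 0.819, for Rad17, and all others rounded to 1. Unadjusted p-values were under 0.05 in 193 genes (2.27%) and under 0.01 in 23 (0.271%). The same fit without moderation of the variances called 0 and gave 201 genes at an unadjusted p under 0.05. No gene had diets whose rats did not overlap (0%). Of the tested genes 4740 (55.9%) had a lower mean on the low diet and 3745 (44.1%) a higher one. Among the 193 genes, 137 had a lower mean (1.61% of the tested genes) and 56 a higher one (0.66%), so 29.0% were higher. That split moved with the scaling, to 41.9% higher after quantile normalization and 49.7% after centring each array on its median.

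In the fit without cages the precision was enough to bound most genes. The median standard error of a difference was 0.0363 and the median size of a difference 0.0207. For 8377 genes, 98.7% of those tested, limma's 95% interval stayed inside 1.2-fold in either direction. That fit takes cage mates as independent rats, so intervals that allow for cages may be wider. Only 8 genes had a difference larger than 1.2-fold, 4 in each direction. They include the antigen-presentation gene Cd74 (+0.50, SE 0.30) and the activity-induced transcription factor Npas4 (-0.42, SE 0.32).

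**Figure D1:**
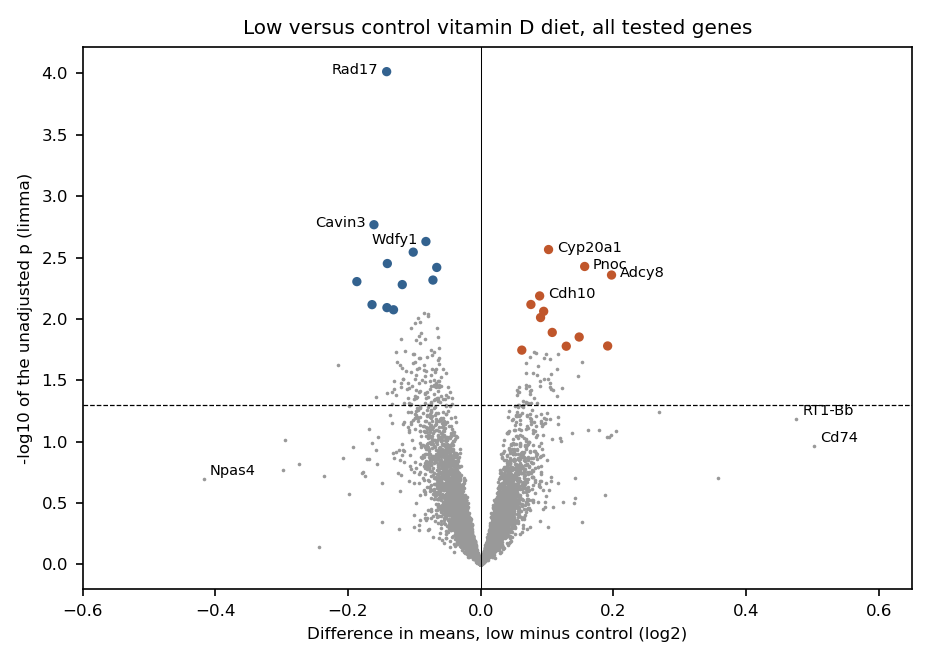
Each point is 1 of the 8485 tested genes. The x axis is the difference in mean log2 value, low minus control, and the y axis is -log10 of the unadjusted limma p, with the dashed line at 0.05. Coloured points are the 12 genes of smallest p in each direction. Rad17 stands highest at -0.14, and the genes with the widest differences, such as Cd74 at +0.50, lie below the dashed line.

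The arrays were alike in scale, with medians between 6.928 and 6.965 and a mean correlation with the other arrays of 0.9949 to 0.9969 for 16 of the 17. Control rat 17 stood apart at 0.9935. It held by far the highest control values of Efna5, an axon guidance ligand (9.34 against at most 7.57 in the other control rats), of the potassium channel subunit Kcnf1 (8.79 against at most 7.43) and of Rgs4, a brake on G protein signalling (10.96 against at most 9.57). Low rat 5 held the highest values of antigen-presentation genes, and low rat 7 was the low-diet array least like the others. Several results moved when 1 of these rats was left out, and such values are given beside some of the genes and lists concerned. Markers of the hippocampal fields and of pyramidal neurons were well measured in every rat, such as Slc17a7, the vesicular glutamate transporter of these neurons, at 13.07 to 13.25. Ttr, the defining transcript of choroid plexus, varied most, from 7.61 to 10.06 on the low diet and from 6.69 to 12.91 on control, with the highest value in control rat 16. The part of that tissue in the results was not tested.

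Rats were housed in pairs, and cages were read from the array descriptions, with a tail mark telling cage mates apart. The low diet had 4 cages with both mates measured, and the control diet had 5 cages, with a single rat from cage ctr-2. Mates might share more than a diet, so their likeness was measured. Over the tested genes, the deviations of mates from their diet mean correlated between -0.247 and 0.141, with a median of -0.0195 over 8 pairs. For the 56 pairs of rats of the same diet from different cages the median was -0.162, with a range of -0.38 to 0.218. The consensus correlation of cage mates in all 14 cages of the series was 0.136. With cage as a random block 0 genes were called (0%), and 128 had an unadjusted p under 0.05. With mates averaged into 1 value per cage 0 were called (0%), and 161 had an unadjusted p under 0.05. The difference of Rad17 was -0.14 in both the plain and the blocked fit. With cages of nearly equal size a block can hardly move a difference in means. It acts on the standard errors and p-values, so the unmoved value says nothing about the cages.

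The machinery of vitamin D itself showed no difference by diet that could be told from the spread between rats. Pdia3, a membrane-associated receptor of the hormone that is also a chaperone of the endoplasmic reticulum, ranged from 13.09 to 13.18 on the low diet (median 13.14) and from 13.08 to 13.21 on control (median 13.11). The rats of both diets overlapped throughout. The difference was +0.0092 (SE 0.02, limma's 95% interval -0.036 to 0.054). Rxra ranged from 8.28 to 8.61 on the low diet (median 8.43) and from 8.26 to 8.65 on control (median 8.43), again with full overlap. Its difference was +0.019 (SE 0.05), which was -0.034 without cage Lo-8, -0.0035 without low rat 5, +0.042 without low rat 7 and +0.047 without control rat 17. Cyp2r1, the main 25-hydroxylase, ranged from 7.13 to 7.44 on the low diet (median 7.35) and from 7.20 to 7.56 on control (median 7.32). Its difference of -0.0049 (SE 0.04) turned positive after centring (+0.00083), so no direction can be given.

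Most other genes of the hormone's path lay below the median intensity of all probe sets, 6.94, and were not tested. Vdr ranged from 5.19 to 5.44 on the low diet (median 5.29) and from 5.18 to 5.34 on control (median 5.28). Cyp24a1 ranged from 5.27 to 5.52 (median 5.38) and from 5.32 to 5.56 (median 5.37), and Cyp27b1 from 5.85 to 5.96 (median 5.89) and from 5.80 to 5.92 (median 5.88). For these 3 genes the diets overlapped. Also untested were Gc, the vitamin D carrier of plasma, and Lrp2 and Cubn, the endocytic receptors of that carrier, whose differences were +0.045 (SE 0.04), -0.020 (SE 0.03) and +0.025 (SE 0.03). Cyp27a1 came nearest to a separation. It ranged from 6.41 to 6.63 on the low diet (median 6.52) and from 6.46 to 6.84 on control (median 6.604), and 7 of 8 low-diet rats lay below the control mean. The difference was -0.091 (SE 0.05, 95% interval -0.18 to 0.0011), and since the gene was under the intensity limit it got no p. Low-diet cages averaged 6.474 to 6.587. Control cage ctr-2, with a single rat, lay below them all at 6.464, and the other control cages lay above them, at 6.605 to 6.682.

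**Figure D2:**
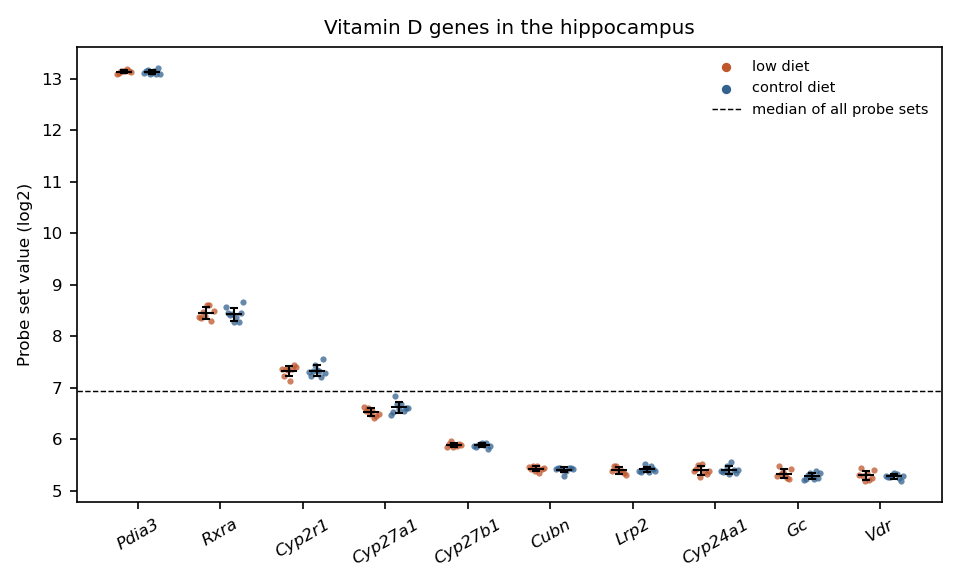
Log2 probe set values of 10 vitamin D genes in each rat (points, low diet on the left and control on the right of each gene), with the mean and SD as black bars. The dashed line is the median of all probe sets, 6.94. The diets overlap in every gene shown, with Cyp27a1 the least, and levels of different probe sets are not comparable with each other.

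Over the whole list of receptors, enzymes and coregulators, 11 of 19 genes with a probe set were tested, 7 had a higher mean on the low diet and 4 a lower one (8 and 3 after centring). The median difference was +0.0025, against -0.0043 over all tested genes, and 0 of 11 had an unadjusted p under 0.05. The coactivators Ncoa3 and Snw1 had the smallest p of the list, with differences of -0.054 (SE 0.04) and -0.043 (SE 0.03). Without low rat 7 the difference of Ncoa3 was -0.028. Of 23 textbook target genes with a probe set only 5 were tested, 3 higher and 2 lower. They include Calb1, the calcium buffer calbindin of dentate granule cells (+0.00070, SE 0.05), Lrp5, a coreceptor of Wnt ligands (+0.038, SE 0.03), and Txnip, the thioredoxin-binding protein first described as induced by vitamin D (-0.067, SE 0.07). Without low rat 6 the difference of Txnip was -0.026, and without control rat 16 that of Lrp5 was +0.020.

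The vitamin D receptor and its partner bind a direct repeat of 2 half-sites with a spacer of 3 bases. That element was searched on both strands in the 250 bases before each gene's start, in the RefSeq promoters of assembly GRCr8, with the half-sites AGGTCA or AGGTGA or AGTTCA or AGTTGA or GGGTCA or GGGTGA or GGTTCA or GGTTGA in any combination. It was found in 105 of 33469 promoters (0.314%), and in 12 of the 7102 tested genes that matched a promoter (0.169%). Of the genes with an unadjusted p under 0.05, it was in 0 of 117 matched genes with a lower mean and 0 of 46 with a higher mean on the low diet. A match is a description of the sequence and not a known site. The 4 tested genes with a match and the smallest p are shown as examples of a match. The element is in capitals with up to 20 bases on each side, read 5′ to 3′ on the strand of the gene.
Get3 (chr19:40034783-40034837, element 174 to 160 bases before the start): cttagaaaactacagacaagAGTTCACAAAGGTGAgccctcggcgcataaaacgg
Prp2l1 (chr10:89040743-89040797, 177 to 163 bases before the start): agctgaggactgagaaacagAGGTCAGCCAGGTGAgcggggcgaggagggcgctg
RT1-CE13 (chr20:3322800-3322838, 19 to 5 bases before the start, element on the opposite strand): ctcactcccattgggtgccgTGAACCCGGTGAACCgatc
Taco1 (chr10:91502149-91502203, 226 to 212 bases before the start, element on the opposite strand): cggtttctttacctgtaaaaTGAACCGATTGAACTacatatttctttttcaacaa
Get3, which inserts tail-anchored proteins into the endoplasmic reticulum, lies on the plus strand of chromosome 19, and its difference was +0.025 (SE 0.02), or +0.0098 without low rat 7. Prp2l1 on the minus strand of chromosome 10 differed by +0.039 (SE 0.03). RT1-CE13, a class I gene of the rat major histocompatibility complex on chromosome 20, differed by -0.077 (SE 0.05), and Taco1, a translational activator of a cytochrome oxidase subunit, by -0.070 (SE 0.04). Of the 12 genes with a match 4 had a higher and 8 a lower mean on the low diet, 0 had an unadjusted p under 0.05, and the median difference was -0.0085.

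Genes of DNA repair included the gene of smallest p. Rad17 (probe set 10820973) had values from 7.46 to 7.66 on the low diet (median 7.56) and from 7.60 to 7.81 on control (median 7.71). All 8 low-diet rats lay below the control mean and 5 lay below every control rat, while 6 control rats lay above every low-diet rat. The means were 7.57 ± 0.07 (SD, n = 8) and 7.71 ± 0.07 (SD, n = 9), a difference of -0.14 (SE 0.03, a ratio of 0.906). The 4 low-diet cages averaged 7.54 to 7.60 and the 5 control cages 7.63 to 7.79, with no overlap. The difference was -0.19 in marked and -0.098 in unmarked rats, and between -0.16 and -0.12 with any rat or cage left out. Its adjusted limma p of 0.819 did not pass, and over the alternatives of the fit the smallest adjusted p of any gene was 0.222, without control rat 11.

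Xrcc1, the scaffold of single-strand break repair, went the other way, from 8.42 to 8.73 on the low diet (median 8.48) against 8.33 to 8.47 on control (median 8.42). Low rat 4 was the highest at 8.73, and 6 low-diet rats lay above every control rat. The difference was +0.087 (SE 0.04), and +0.048 without cage Lo-5. Of 24 tested genes of DNA damage and repair 16 had a lower mean on the low diet (15 after centring), with a median of -0.014. Rad17 and Xrcc1 were the only 2 at an unadjusted p under 0.05, beside 2.27% of all tested genes.

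Other genes with lower means lay in membrane, cytoskeletal and nuclear functions. Cavin3 (probe set 10724464) ranged from 8.58 to 8.79 on the low diet (median 8.71) and from 8.72 to 9.18 on control (median 8.82). Control rat 17 was the highest, and 4 low-diet rats lay below every control rat. The difference was -0.16 (SE 0.05), or -0.12 without control rat 17. Stmn2, a neuronal regulator of microtubules, ranged from 11.70 to 11.80 (median 11.76) and from 11.73 to 11.88 (median 11.83), with all 8 low-diet rats below the control mean and a difference of -0.066 (SE 0.02). Wdfy1 ranged from 9.51 to 9.66 (median 9.57) and from 9.60 to 9.75 (median 9.64), and 7 low-diet rats lay below every control rat (difference -0.083, SE 0.02). The sialyltransferase St3gal6 differed by -0.10 (SE 0.03), the ubiquitin and SUMO ligase Topors by -0.14 (SE 0.04), the nuclear pore protein Aaas by -0.072 (SE 0.02) and Mcmdc2, a relative of the replicative helicase subunits, by -0.19 (SE 0.06). Cntnap5b, a neurexin-like adhesion gene, differed by -0.16 (SE 0.06), or -0.090 without cage Lo-8.

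Among genes with higher means, Cyp20a1 (probe set 10923768) ranged from 8.73 to 8.97 on the low diet (median 8.81) and from 8.64 to 8.79 on control (median 8.73). All 8 low-diet rats lay above the control mean and 5 above every control rat, and the difference was +0.10 (SE 0.03, a ratio of 1.07). Cdh10, a cadherin of neuronal contacts, ranged from 10.88 to 11.08 (median 11.02) and from 10.85 to 10.96 (median 10.91). In 6 low-diet rats it was above every control rat, with a difference of +0.089 (SE 0.03). The rest of the 12 leading genes in this direction were the zinc finger genes Zfp13 (+0.076, SE 0.03) and Zscan21 (+0.15, SE 0.06, or +0.097 without cage ctr-8), the ubiquitin ligase gene Hectd2 (+0.095, SE 0.03), Smim30l1 (+0.090, SE 0.03), the membrane-bound transcription factor Creb3l1 (+0.11, SE 0.04), the vomeronasal receptor gene Vom1r47 (+0.19, SE 0.08), the apoptosis inhibitor Aven (+0.13, SE 0.05) and Naa50, a protein N-acetyltransferase (+0.062, SE 0.02). Pnoc and Adcy8 are described with their functions.

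Cages gave the same order for some of these genes. Of the 24 leading genes, 8 had cage means that did not overlap between the diets (Rad17, Cavin3, Wdfy1, St3gal6, Stmn2, Aaas, Pnoc and Cdh10), against 56 of all tested genes (0.66%). These 24 were chosen by their p in the same contrast, so the count describes them and supports nothing.

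**Figure D3:**
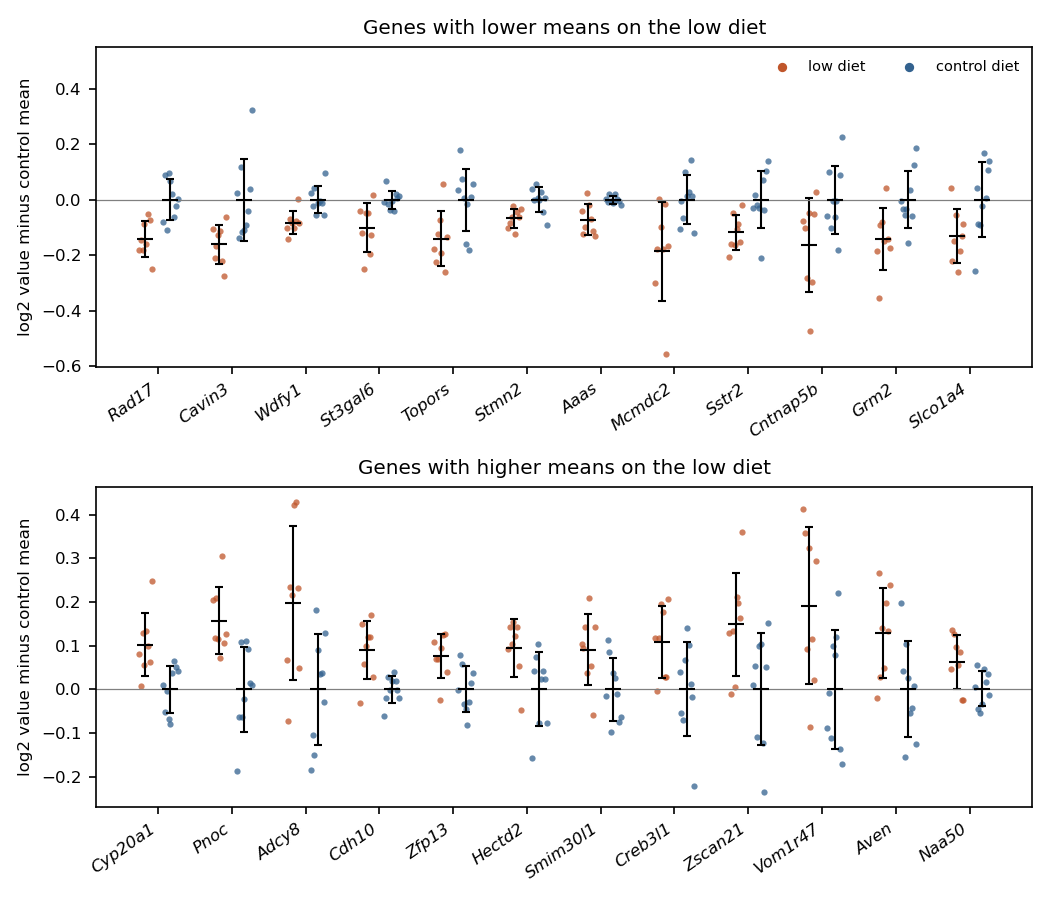
Values of the 12 genes of smallest p in each direction, as log2 value minus the control mean of the gene, for the 8 low-diet and 9 control rats (points) with the mean and SD of each diet as black bars. In every gene the diets overlap, and the difference in means is largest for Adcy8 at +0.20 and Mcmdc2 at -0.19.

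Neuropeptide and receptor genes included Pnoc and the somatostatin receptor Sstr2, in opposite directions. Pnoc (probe set 10784546) ranged from 7.05 to 7.29 on the low diet (median 7.10) and from 6.80 to 7.09 on control (median 6.99). All 8 low-diet rats lay above the control mean, and 6 lay above every control rat. The means were 7.14 ± 0.08 (SD, n = 8) and 6.98 ± 0.10 (SD, n = 9), a difference of +0.16 (SE 0.05, a ratio of 1.11) that was +0.15 in marked and +0.17 in unmarked rats. Sstr2 ranged from 8.99 to 9.17 on the low diet (median 9.06) and from 8.98 to 9.33 on control (median 9.17), where rat 13 was the lowest and 4 rats lay above every low-diet rat. Its difference was -0.12 (SE 0.04). In the list 17 of 24 tested genes had a lower mean on the low diet (14 after centring) and the median was -0.017. The cholecystokinin receptor Cckbr had the lowest difference of the list, -0.19 (SE 0.12). Without control rat 17, 13 of 24 genes were lower, and without cage Lo-4 the median was +0.0038.

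Receptors of dopamine, serotonin, acetylcholine and noradrenaline were split, with 13 of 23 tested genes lower (12 after either scaling) and 0 at an unadjusted p under 0.05. The serotonin receptor Htr5b differed by +0.12 (SE 0.06), or +0.073 without control rat 17. The muscarinic receptor Chrm2 differed by -0.092 (SE 0.05) and the nicotinic subunit Chrna4 by -0.24 (SE 0.18), but both were highest in control rat 17, at 9.17 and 8.53. Without that rat the differences were -0.047 and -0.062, and without low rat 5 that of Chrm2 was -0.060.

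Genes of glutamate receptors and the postsynaptic density showed 20 of 34 with a higher mean on the low diet (22 after centring), with a median of +0.0071. Grm2, a presynaptic metabotropic receptor that restrains glutamate release, ranged from 8.68 to 9.07 on the low diet (median 8.89) and from 8.88 to 9.22 on control (median 9.00). In 3 low-diet rats it was below every control rat, and the difference was -0.14 (SE 0.05), or -0.097 without cage ctr-10. Homer2, a scaffold that ties metabotropic receptors to calcium stores, ranged from 8.95 to 9.19 (median 9.14) and from 8.94 to 9.19 (median 9.02), with a difference of +0.074 (SE 0.03). These 2 were the only genes of the list at an unadjusted p under 0.05, beside 2.27% of all tested genes. The presynaptic vesicle cycle had 29 of 44 genes lower (24 after centring) and a median of -0.0077. Without low rats 5 and 7 and control rat 17, 20 of 44 were lower and the median was +0.0031. In marked rats 37 of 44 were lower, and in unmarked rats 16 of 44. The fusion protein Snap29 differed by -0.094 (SE 0.05) and syntaxin Stx1a by -0.082 (SE 0.06). Stx1a was -0.027 without control rat 17, which held 10.35 against at most 9.94 in the other control rats. GABA receptor genes had a median of -0.0032 that turned positive after centring, and 0 of 12 were at an unadjusted p under 0.05.

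Calcium handling, by channels, pumps, buffers and calmodulin-dependent enzymes, showed small median differences in every list. Voltage-gated channels and release channels had 14 of 23 genes higher on the low diet (16 after centring), with a median of +0.0097 that was -0.0015 without control rat 17. Cacnb4, a channel subunit, had an unadjusted p under 0.05. It ranged from 10.87 to 10.95 on the low diet (median 10.92) and from 10.91 to 11.22 on control (median 10.96), with control rat 17 the highest. All 8 low-diet rats lay below the control mean, and the difference of -0.070 (SE 0.03) was -0.041 without that rat. Pumps and exchangers had 13 of 22 higher (14 after centring) with a median of +0.011. The plasma membrane pump Atp2b4 differed by -0.30 (SE 0.17), and by -0.13 without control rat 17, which held 10.94. Stim1, the sensor of store calcium, had all 8 low-diet rats above the control mean and a difference of +0.040 (SE 0.02). Calcium sensors and buffers had a median of -0.0038 that turned positive after centring.

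Adcy8 (probe set 10904063) belonged to the calmodulin-dependent enzymes, where 13 of 25 genes were higher (14 after centring) and the median was +0.0034. Without control rat 17, 9 of 25 were higher and the median was -0.00495. Adcy8 ranged from 8.61 to 9.11 on the low diet (median 8.90) and from 8.49 to 8.86 on control (median 8.71). In 5 low-diet rats it was above every control rat, with both mates of cage Lo-8 at about the top, at 9.10 and 9.11. The difference was +0.20 (SE 0.06, a ratio of 1.15) and +0.12 without cage Lo-8. Camk2d, a subunit of calcium/calmodulin kinase, differed by -0.16 (SE 0.10). In control rat 17 it was 10.18 against at most 9.31 in the other control rats, and without that rat the difference was -0.050. The potassium channels behind the afterhyperpolarization had 9 of 13 genes lower (8 after centring) with a median of -0.024, and 0 were at an unadjusted p under 0.05. The median of that list was -0.00059 without cage Lo-8 and -0.012 without control rat 17.

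Genes induced by neuronal activity had 11 of 19 higher on the low diet (13 after centring) and a median of +0.016. Npas4 ranged from 7.01 to 9.28 on the low diet (median 7.98) and from 7.51 to 10.55 on control (median 8.24). Rat 17 was again the highest of the control rats, and the difference of -0.42 (SE 0.32) was -0.16 without it and -0.078 without its cage, ctr-10. Neurotrophic factors and receptors were split evenly, 7 of 14 in each direction, with a median of +0.0052. Without control rat 17, 8 of 14 were lower and the median was -0.0055. Gfra2, a receptor for neurturin, differed by -0.21 (SE 0.14), or -0.079 without that rat.

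Energy metabolism had more genes with lower than with higher means on the low diet. In complex I of the respiratory chain 24 of 33 genes were lower (20 after centring) with a median of -0.0098. In complexes II to V 25 of 34 were lower (24 after centring) with a median of -0.016, and in glycolysis and the citric acid cycle 24 of 31 were lower (21 after centring) with a median of -0.0097. No gene of these 3 lists had an unadjusted p under 0.05, where 2.27% of all tested genes did, and 55.9% of all tested genes had a lower mean. Ndufb2 had the smallest p of complex I, with a difference of -0.070 (SE 0.04), and citrate synthase (Cs) differed by -0.037 (SE 0.02), while its second probe set gave -0.0048. Without cage Lo-4 the difference of Ndufb2 was -0.032. Without control rat 17 the medians were -0.0038, -0.0069 and -0.0081. Without low rats 5 and 7 and control rat 17 the counts of lower genes were 17 of 33, 18 of 34 and 20 of 31. Proteasome and autophagy genes had 27 of 37 lower (23 after centring) and a median of -0.019.

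Cholesterol synthesis shares its last precursor, 7-dehydrocholesterol, with the making of vitamin D3 in skin. Of 19 tested genes 13 had a lower mean on the low diet under each scaling, with a median of -0.024 that shrank to -0.0041 without cage Lo-8. Dhcr7, the reductase that uses that precursor, ranged from 8.25 to 8.72 on the low diet (median 8.48) and from 8.48 to 8.73 on control (median 8.58). The lowest values were those of low rats 5 and 6, both from cage Lo-8, and 4 low-diet rats lay below every control rat. The difference was -0.12 (SE 0.06), and -0.043 without that cage. Tm7sf2, a sterol reductase earlier in the path, ranged from 7.33 to 7.63 (median 7.54) and from 7.44 to 7.77 (median 7.59) with a difference of -0.084 (SE 0.04), or -0.045 without cage ctr-10. The regulator Srebf2 differed by +0.040 (SE 0.04).

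Of 16 tested clock genes 15 had a lower mean on the low diet under each scaling, beside 55.9% of all tested genes. The median difference was -0.020, and 0 had an unadjusted p under 0.05. The 16 genes were read in the same rats, so they are not separate observations. The gene with a higher mean was the repressor Cry2, which ranged from 10.77 to 10.90 on the low diet (median 10.86) and from 10.76 to 10.86 on control (median 10.79), a difference of +0.048 (SE 0.03). The period gene Per3 ranged from 9.09 to 9.50 (median 9.25) and from 9.30 to 9.47 (median 9.36), with low-diet rats at both ends, and differed by -0.094 (SE 0.05). The output factor Dbp differed by -0.066 (SE 0.06). The mean of the tested clock genes in a rat spanned 9.995 to 10.17 on the low diet and 10.04 to 10.13 on control, so the diets overlapped. When low rats 5 and 7 and control rat 17 were left out, 10 of 16 genes were lower.

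Genes that respond to glucocorticoids had 12 of 18 higher on the low diet (13 after centring) and a median of +0.045 that was +0.010 without control rat 17 and -0.031 without its cage, ctr-10. Mt1, a metallothionein, ranged from 10.22 to 10.69 on the low diet (median 10.37) and from 10.00 to 10.45 on control (median 10.31). Low rat 5 was the highest and control rat 17 the lowest. The difference was +0.12 (SE 0.06), or +0.079 without low rat 5 and +0.069 without cage ctr-10, and the second probe set of the gene gave +0.14. The phosphatase gene Dusp1 differed by +0.19 (SE 0.11), or +0.096 without cage ctr-5.

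Immune and vascular genes were read as markers of cells that a whole hippocampus also holds. Tissue RNA cannot tell fewer cells of a type from less RNA in each cell, and this holds for every marker list here. Markers of T cells and perivascular antigen-presenting cells had 5 of 6 tested genes higher on the low diet under each scaling, with a median of +0.25, the widest of the 43 lists with at least 5 tested genes. Cd74, the invariant chain of class II molecules, ranged from 9.33 to 12.22 on the low diet (median 9.52) and from 8.99 to 10.06 on control (median 9.60). Low rats 5, 7 and 3 were above every control rat, at 12.22, 10.62 and 10.18, and the other 5 lay within the control range, so the low-diet median was below that of control. The class II genes RT1-Ba and RT1-Bb, which belong to a family of related sequences, were highest in the same low rat 5, at 9.49 and 9.43. The differences were +0.50 (SE 0.30), +0.36 (SE 0.27) and +0.48 (SE 0.25), and without low rat 5 they were +0.19, +0.046 and +0.18. Genes were tested if their mean was at least 6.94, so high values in a single rat can bring a gene into the test. On control RT1-Bb averaged 6.82 in marked and 6.99 in unmarked rats, and RT1-Ba 6.90 and 6.98. Both genes thus lay near the limit on control, and low rat 5 raised their means. The count, the median and its rank among the lists may rest partly on genes tested because of the difference.

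All 3 low-diet rats with high Cd74 carried the tail mark, and the fourth marked rat of that diet had 9.52. The median of the list was +0.63 in marked rats and -0.11 in unmarked rats, and without low rat 5 it was +0.086 over all rats. Over all 15 markers of the list with a probe set, tested or not, the mean per rat spanned 6.57 to 7.48 on the low diet and 6.52 to 6.72 on control.

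Microglial genes had 11 of 14 higher on the low diet (12 after either scaling) with a median of +0.040, and the same rat stood out. The mean of the list was 9.84 in low rat 5 and between 9.42 and 9.50 in the other low-diet rats, against 9.41 to 9.50 on control. Without that rat the median was -0.0027. Ctss, a lysosomal protease of microglia, was 12.54 in low rat 5 and differed by +0.060 (SE 0.04), or +0.019 without it. Complement genes were split, 6 of 12 in each direction. The complement receptor C3ar1 ranged from 7.40 to 7.91 on the low diet (median 7.67) and from 7.39 to 7.61 on control (median 7.56), with 5 low-diet rats above every control rat. Its difference was +0.11 (SE 0.05), or +0.072 without low rat 5 and +0.050 without cage Lo-8. The median of the complement list was -0.034 without low rat 5. Interferon response genes had 5 of 7 lower under each scaling with a median of -0.030, and inflammatory genes 7 of 13 higher with a median of +0.0034, with Il18 at -0.099 (SE 0.05).

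Endothelial genes had 12 of 14 lower on the low diet (11 under either scaling), beside 55.9% of all tested genes, with a median of -0.026. These genes were read in the same rats and are not separate observations. Slco1a4, the organic anion transporter of the blood-brain barrier, ranged from 9.48 to 9.78 on the low diet (median 9.60) and from 9.48 to 9.91 on control (median 9.75). In 4 control rats it was above every low-diet rat, and the difference was -0.13 (SE 0.05). The tight junction gene Cldn5 differed by -0.047 (SE 0.04) and the glucose transporter Slc2a1 by -0.012 (SE 0.04). Averaged over the list, rats had 8.62 ± 0.04 on the low diet (SD, n = 8) and 8.65 ± 0.05 on control (SD, n = 9), with ranges of 8.55 to 8.67 and 8.56 to 8.71. The median was -0.051 in marked rats and +0.0023 in unmarked rats, and without cage ctr-8 it was -0.0052 over all rats. Pericyte and smooth muscle genes had 5 of 6 higher with a median of +0.018, which was -0.037 in marked rats, +0.042 in unmarked rats and +0.0023 without low rat 4.

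Among neuronal field markers, 6 of 7 genes of CA1, 7 of 9 of CA3 and CA2 and 6 of 7 of the dentate gyrus had a higher mean on the low diet under each scaling. The medians were +0.033, +0.020 and +0.022, and without control rat 17 they were +0.019, -0.011 and +0.015, with 5 of 7, 3 of 9 and 4 of 7 genes higher. That rat had the lowest CA1 mean of all, 10.51 against 10.63 to 10.82 in the other rats. The dendritic adhesion gene Amigo2, a marker of CA2, differed by +0.10 (SE 0.05), and Dcx, the marker of immature granule neurons, by -0.081 (SE 0.06), or -0.048 without control rat 17. Astrocyte genes were split, 8 of 15 lower, and their folate enzyme Aldh1l1 ranged from 7.35 to 7.48 on the low diet (median 7.42) and from 7.41 to 7.64 on control (median 7.46). All 8 low-diet rats lay below the control mean, and the difference was -0.061 (SE 0.03), or -0.0415 without control rat 17. Interneuron genes had 8 of 13 lower (7 after centring) with a median of -0.013.

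The machinery of RNA and protein synthesis lay close to 0. Cytosolic ribosomal protein genes had 36 of 63 lower and a median of -0.0057, with 30 of 63 lower after centring, so the majority turned. It also turned without control rat 17, with 30 of 63 lower and a median of +0.0036. RNA polymerase I and nucleolar genes had 14 of 21 lower and a median of -0.0045 that turned positive after centring. Chaperones had 16 of 27 higher (19 after centring), antioxidant genes 15 of 28 lower (14 after centring), and genes of the matrix 6 of 12 in each direction (7 higher after centring). None of the genes of these 5 lists had an unadjusted p under 0.05. Over all 48 lists 795 distinct genes were tested, of which 14 (1.76%) had an unadjusted p under 0.05, beside 2.27% of all tested genes.

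**Figure D4:**
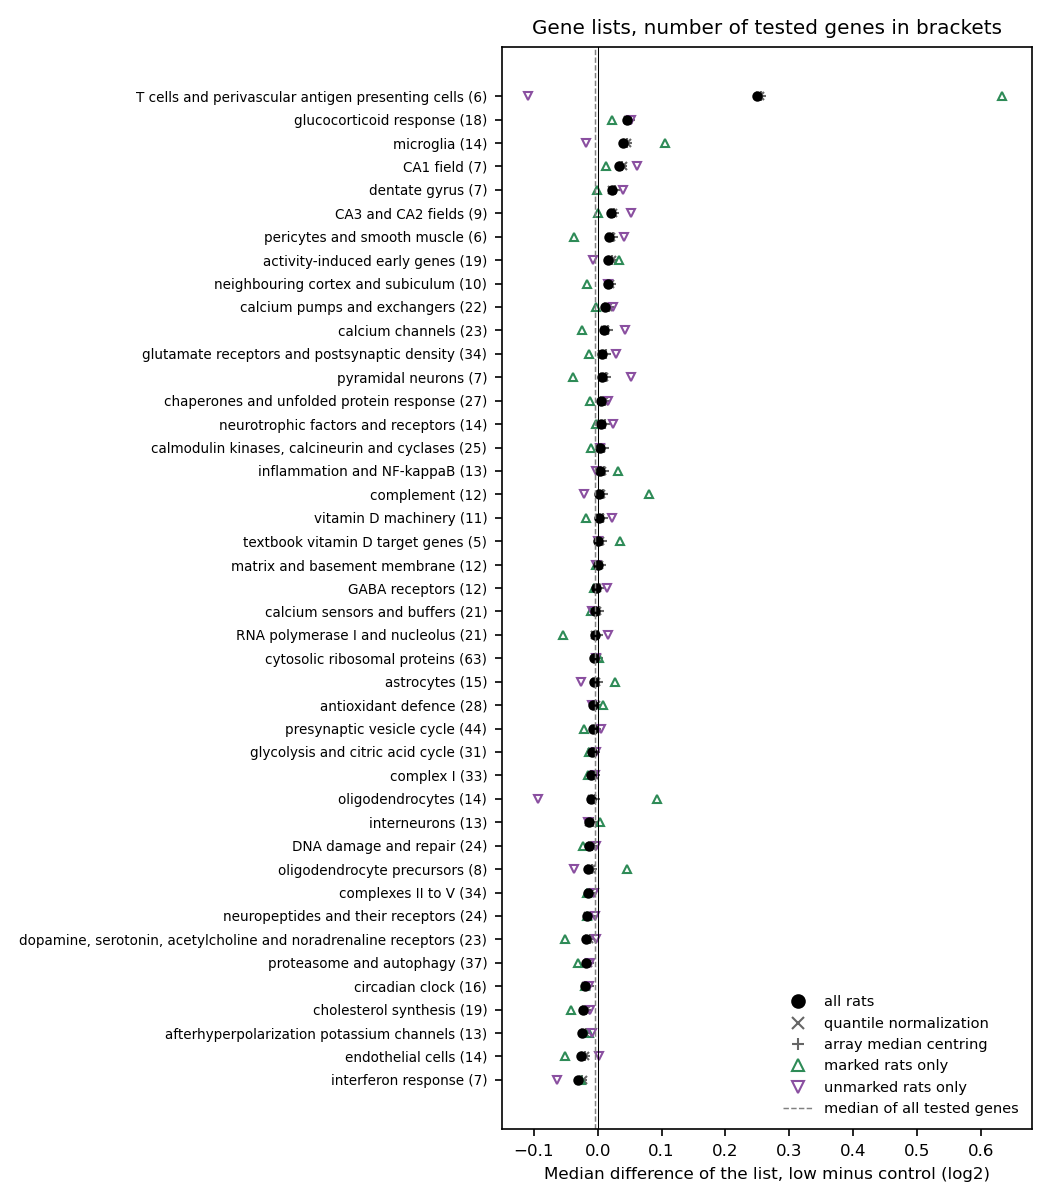
Median difference, low minus control in log2, of the 43 gene lists with at least 5 tested genes (number in brackets). Black points are all rats, crosses the 2 other scalings, triangles the marked or the unmarked rats only, and the dashed line the median of all genes. Most medians lie within 0.05 of 0, and in 27 lists the medians of marked and unmarked rats lie on opposite sides of 0.

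In oligodendrocytes, the myelin-forming cells, the diet differences had opposite signs in marked and unmarked rats, as did the median differences of 27 of the 43 lists and that of all tested genes (-0.012 and +0.0039). Over all rats 9 of 14 genes were lower on the low diet under each scaling, with a median of -0.0100. Among marked rats all 14 were higher on the low diet, with a median of +0.092, and among unmarked rats 13 were lower, with a median of -0.094. The mean of the list in marked rats was 11.20 to 11.26 on the low diet and 11.05 to 11.18 on control. In unmarked rats it was 10.98 to 11.35 on the low diet and 11.17 to 11.34 on control, so the low-diet rats lay at both ends. The 14 genes were read in the same rats, so they are not separate observations.

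This difference of differences was tested for every gene with an interaction of diet and tail mark in limma, a comparison chosen after the values were seen. The interaction was above 0 in all 14 oligodendrocyte genes, at an unadjusted p under 0.05 in 6 of them, and called in 0. The largest of these 6 was that of the fatty acid hydroxylase Fa2h, +0.33 (SE 0.12), and the smallest p was that of the lineage factor Sox10, +0.28 (SE 0.09). All of these values restate the split between marked and unmarked rats given above and are no separate support for it. Over all genes 362 (4.27%) had an unadjusted p under 0.05 and 1 (0.0118%) was called, Fam118b.

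Fam118b (probe set 10916052) lay between 7.37 and 7.60 in the marked low-diet rats and between 7.57 and 7.70 in the marked control rats. In unmarked rats the order was the other way round, with 7.63 to 7.77 on the low diet and 7.38 to 7.61 on control. Only 1 marked low-diet rat, from cage Lo-8, reached into the marked control range, and the unmarked diets did not overlap. Fam118b was chosen by its p in this same comparison, so the separation describes the gene and supports nothing. The share of all tested genes with such a separation in groups this small was not counted. The means were 7.45 ± 0.10 (SD, n = 4) and 7.65 ± 0.06 (SD, n = 4) in marked rats, and 7.68 ± 0.06 (SD, n = 4) and 7.49 ± 0.08 (SD, n = 5) in unmarked rats. The diet difference was -0.20 (SE 0.05) in marked and +0.20 (SE 0.05) in unmarked rats, and the interaction was -0.39 (SE 0.07) with an adjusted p of 0.0423 in limma. That fit took cage mates as independent rats. With cage as a random block the adjusted p was 0.00776. The call was lost when the model held only the low and control arrays (adjusted p = 0.556) and without low rat 1 (0.176), low rat 4 (0.184), low rat 7 (0.176) or control rat 16 (0.182). Over all rats the diet difference of the gene was +0.0089 (SE 0.05).

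**Figure D5:**
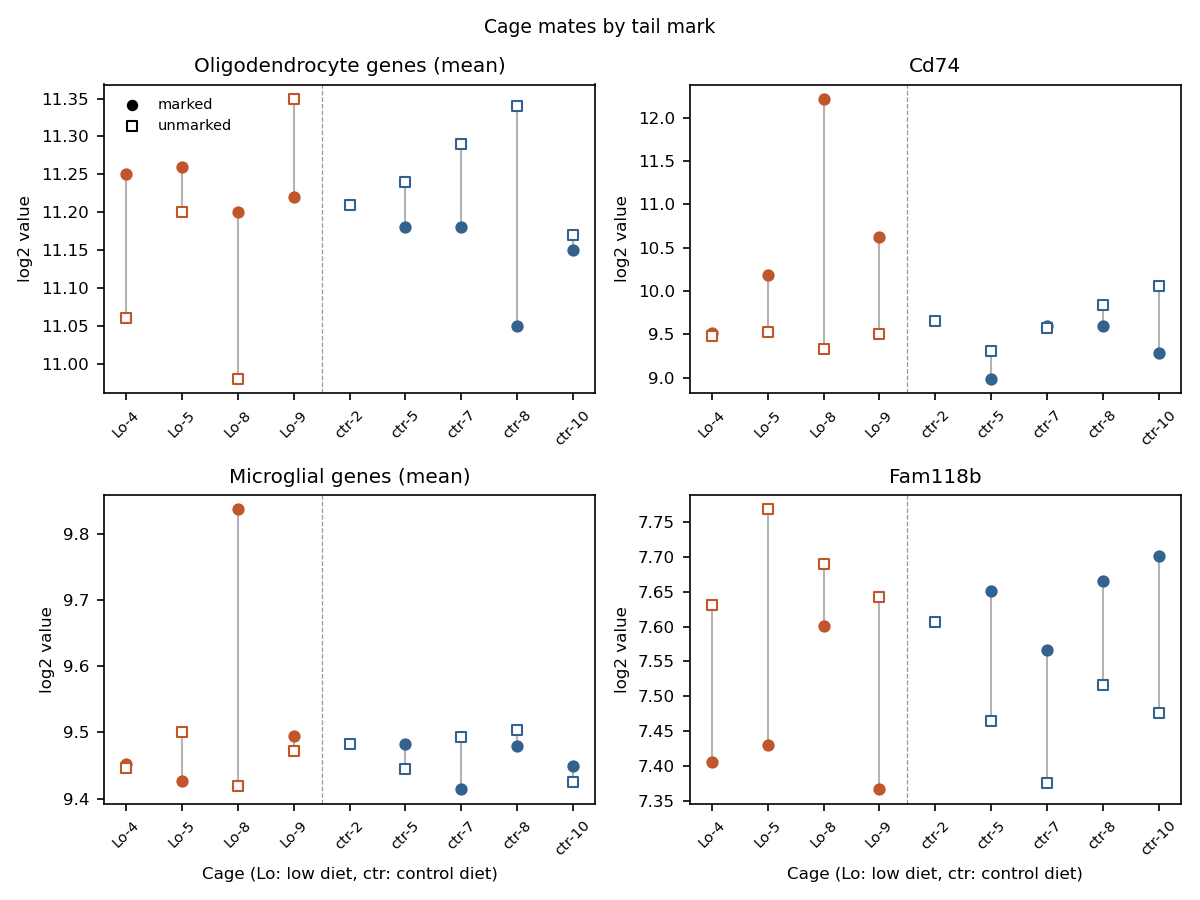
Values of each cage, with filled circles for the marked and open squares for the unmarked rat and a line joining mates, for the mean of 14 oligodendrocyte genes, Cd74, the mean of 14 microglial genes and Fam118b, all in log2. Low-diet cages are on the left and control cages on the right. In Fam118b the marked rat is the lower mate in all 4 low-diet cages and the higher mate in all 4 control cages with both rats, and Cd74 reaches 12.22 in the marked rat of cage Lo-8.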

How the data were processed

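RNA of 26 rat hippocampi was hybridised to whole-transcript Affymetrix rat gene arrays, 1 per rat, and the log2 values of 29214 probe sets deposited by the authors were used as given, with no counts or depth behind them. GCRMA and Partek 6.6 are named per the submitters' processing notes, with no role given. Of the probe sets 15310 carry 1 gene symbol, 323 several and 13581 none, and 15279 of the first matched RefSeq (GRCr8). The probe set of highest mean stood for each of 14506 genes, and the 8485 with a mean of at least 6.94, the median of all probe sets, were tested. Limma 3.58.1 (R 4.3.3) fitted the 3 diets over all 26 arrays and tested low minus control, with Benjamini-Hochberg adjustment over all tested genes and calls at an adjusted p under 0.17, with 0.05 and 0.31 also read. A p-value sets a difference against the spread between rats, estimated over all 3 diets, with a precision that the number of arrays limits. The main fit takes cage mates as independent rats. Cages entered as a random block (duplicateCorrelation, statmod 1.5.0), as cage means, and by leaving each cage out. Replicate numbers pair no samples across the diets. Other alternatives were the scaling, the intensity filter, array weights, removal of values over 2 SD from the mean, the prior, and each rat left out. The interaction of diet with tail mark, and the fit without low rats 5 and 7 and control rat 17, were added after the values were seen.

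The members and the 48 gene lists (18 of cell types, 30 of functions) were chosen with earlier results of these data known. Named genes were the 12 of smallest p in each direction, up to 3 members of a list at an unadjusted p under 0.05, and a fixed vitamin D set, 42 in all. Further genes, including list members shown where fewer than 2 passed, the 4 genes with a promoter element, Cd74, RT1-Ba, RT1-Bb, Ttr, Npas4, Efna5, Kcnf1, Rgs4 and Chrna4, and any other gene, were chosen after their values were seen. The plain fit was tested on simulated data with independent rats and with shifts larger than the differences of the leading genes. Likeness of cage mates and shifts as small as those were not simulated.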

Additional observations from a re-analysis of the deposited data

Results flagged for a closer look

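In the named genes 246 groups of rats were tested for a rat far from the rest by Dixon's ratio, and 33 had one. Chance alone gives about 1 in 20 groups, but several of these genes were named because 1 rat stood apart in them, so the count cannot be read against that rate.

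Control rat 17 was the highest control rat for Cacnb4 (11.22), Atp2b4 (10.94), Chrm2 (9.174), Cacna1g (9.354), Camk2d (10.18), Gfra2 (9.464), Kcnf1 (8.787), Stx1a (10.35), Efna5 (9.339), Chrna4 (8.532) and Rgs4 (10.96), and the lowest for Rspo2 (9.488).

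Low rat 5 was the highest low-diet rat for Mt1 (10.69), RT1-Bb (9.432), Cd74 (12.22), Ctss (12.54) and RT1-Ba (9.488), and the lowest for Chrm2 (8.499). Low rat 7 was the highest for Camk2d (9.355) and Calr (12.86) and the lowest for Psmc3 (9.328) and Rpl27a (10.05).

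Other rats stood apart in single genes. Low rat 8 was lowest for Hectd2 (10.47) and low rat 4 highest for Xrcc1 (8.733). Control rat 13 was lowest for Sstr2 (8.984), Fgf2 (9.477) and Cubn (5.288), and control rat 12 for Rig1 (7.544) and Ctss (12.08). Control rat 14 was lowest for the myelin genes Cnp (11.71) and Ermn (11.99), control rat 16 was lowest for Rpl10 (12.76) and control rat 9 highest for Atp5f1c (8.996).

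For Fam118b the diet difference in marked rats minus that in unmarked rats was -0.3908, by the interaction test in limma (adjusted p = 0.0423). The mark only tells cage mates apart in the labels.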

How the results depend on the processing

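Limma called 0 genes for low minus control under every alternative run. The count at an unadjusted p under 0.05 was 128 with cage as a random block, 373 in marked rats, 453 with no intensity filter, 71 with the stricter filter and 358 with values over 2 SD removed, and with 1 rat or cage left out it ran from 149 (without cage ctr-10) to 334 (without cage Lo-9). The percent higher among them was 56.6 in unmarked rats, 41.9 after quantile normalization, 49.7 after centring, 56.7 with no filter and 50.3 without low rats 5 and 7 and control rat 17, and ran from 19.6 (without control rat 12) to 55.3 (without cage Lo-4) with 1 rat or cage left out. The interaction called 0 genes with only the low and control arrays, and 0 to 1 with 1 rat left out. No paired comparison of the diets was possible because they share no replicate numbers, and cages lie within a diet. For the interaction, the marked and unmarked mates of a cage could be paired. Its main fit did not use that pairing, and the fit with cage as a random block took cage mates into account.

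The median difference kept its sign in all 26 fits that left out a rat or cage for 16 of 43 lists, and the difference for 109 of 116 tested named genes. The exceptions ran from -0.0148 to 0.123 for Ptgs2, -0.218 to 0.0472 for Rgs4, -0.0588 to 0.00448 for Vtn, -0.000733 to 0.0213 for Pdia3, -0.0342 to 0.0541 for Rxra, -0.582 to 0.195 for Ttr and -0.0359 to 0.0233 for Cyp2r1.

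Signs turned in marked rats for Camk2d (0.0128), Rspo2 (-0.00512), Erbb4 (0.0219), Man1a1 (-0.0397), Gfra2 (0.0654), Efna5 (0.134), Cnp (0.0534), Bok (-0.0121), Hcn2 (0.00494), Txnip (0.108), Ermn (0.0752), Bhlhe22 (-0.057), Rgs4 (0.0276), Abcc9 (-0.0641) and Pdia3 (-0.0105). They turned in unmarked rats for RT1-Bb (-0.0352), Cd74 (-0.225), Rbm28 (0.00189), Ctss (-0.0224), Psmd1 (0.00238), Psmc3 (0.00511), Atp5pf (0.0102), RT1-Ba (-0.163), Podxl (0.0148), Pdgfra (-0.00316), Vtn (0.0132) and Cyp2r1 (0.0394). Without low rats 5 and 7 and control rat 17 they turned for RT1-Ba (-0.0293), Calr (-0.00115), Gabrb1 (-0.00184), Rgs4 (0.0159), Pdia3 (-0.00147) and Cyp2r1 (0.00211). Array weights turned Bhlhe22 (-0.0139) and Pdia3 (-0.00428), removal of values over 2 SD turned Rgs4 (0.0472) and Cyp2r1 (0.0233), and centring turned Cyp2r1 (0.000829). The cause was not tested.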
